A study of Mus musculus with 20 samples.

Results

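Transforming growth factor beta (TGF-beta) is a cytokine made by many cells of the immune system, and 10 genes of its pathway were followed here through sorted CD4 T cells of the mouse. The genes were those for the ligands Tgfb1 and Tgfb3, the receptors Tgfbr1, Tgfbr2 and Tgfbr3, the signal transducers Smad2, Smad3 and Smad4, the inhibitor Smad7 and the corepressor Skil. They were chosen by symbol, as every probe of the array whose annotated gene was 1 of these 10, among 30199 symbols in all. The array carried 17 such probes, of which 16 passed the filter on dim probes, and each of the 10 genes had at least 1 probe that passed.

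The ligands are secreted as inactive complexes and are set free at the cell surface, with the help of carriers such as GARP (gene Lrrc32) and integrins such as alpha-v beta-8. The free ligand binds the type II receptor (Tgfbr2), which activates the type I receptor (Tgfbr1), while the type III receptor betaglycan (Tgfbr3) presents ligand to them. The activated receptor phosphorylates SMAD2 and SMAD3, which enter the nucleus with SMAD4, and SMAD7 and SnoN (Skil) restrain the signal. In CD4 T cells the pathway is known for holding naive cells in check and for its part in the formation of Foxp3+ regulatory T cells.

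All cells came from mice of the strain B6.Cg-Foxp3<tm1Mal>, which report Foxp3 by green fluorescence, which the labels give as aged 8 to 14 weeks and of both sexes, with 8 to 15 mice pooled for each sorted sample. The study's methods give somewhat different ages and pool sizes for its experiments in general. Each sample was hybridised to 1 single-colour Agilent array, which gave 20 arrays in 12 groups. The study speaks of more experiments on each day after immunisation than the arrays analysed here. Peripheral lymph nodes (pLN) of mice immunised subcutaneously with keyhole limpet hemocyanin in alum gave 4 populations, namely naive T cells, follicular helper cells (TFH, sorted as GL7+), regulatory cells (Treg) and follicular regulatory cells (TFR, sorted irrespective of GL7), on day 12 (d12, 2 arrays per group) and day 25 (d25, 1 array per group). Peyer's patches (PP), for which the labels name no immunisation, gave TFH cells with the GL7 epitope (TFH GL7+), TFH cells without it (TFH GL7-), Treg cells and TFR cells (2 arrays per group). The wording of the study's methods covers both tissues where it describes the mice as immunised. TFH and TFR cells were gated as PD1 high, naive and Treg cells as PD1 low and GL7-, and Treg and TFR cells as Foxp3-GFP+, so Foxp3 and PD1 define the groups and are no result here. As these are bulk RNA samples, fewer cells with a transcript and less transcript per cell cannot be told apart.

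Values are normalised intensities, rebuilt from the scanner files and scaled so that the 75th percentile of each array is 1500, with a floor of 20. Detection on an array required at least 3 of a probe's 4 printed copies to be well above background. The p-values measure the spread between these pooled samples. Defining transcripts followed the labels, except that Cxcr5 overlapped between pLN TFR cells (12120, 13680 and 15650) and PP Treg cells (15160 and 9071). Foxp3 was between 13410 and 35130 on the Treg and TFR arrays and at most 192.3 on the others, Cxcr5 was between 86200 and 169600 on the TFH arrays, and Ccr7 was between 116200 and 134600 on the naive arrays. The 5 slides held 4 arrays each, with the pLN d12 samples on slides 1 and 2, the pLN d25 samples on slide 3 and the PP samples on slides 4 and 5. Slide 4 stood apart. Its 12 B-cell markers had a summed intensity of 24070 to 168300, against 6589 to 15330 on slide 5 and 4760 to 22000 on the pLN slides, and its 7 epithelial markers summed to 3525 to 8234 against 742.9 to 2264 and 252.6 to 2055. Markers of other cells were not confined to slide 4. The 6 myeloid markers summed to 5576 to 9244 on the pLN TFH arrays, with 4 to 6 detected, against 1013 to 2170 in naive, 1019 to 1870 in Treg and 2945 to 4357 in TFR cells of pLN. The part of these cells in the results below was not tested. Without slide 4 each PP group has 1 array, which is then assumed to vary like the groups that have 2. The pLN d12 TFR array of slide 2 had a median local background of 268, against 24 to 78 on the other arrays.

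The genes were measured with 60-base probes, of which 3 that fall in coding sequence are printed here. Their sequences are shown because the array reads each gene through such a stretch alone, and because the Tgfbr2 probe ends on the stop codon of the gene (capitals).
Tgfb1 (A_51_P390715): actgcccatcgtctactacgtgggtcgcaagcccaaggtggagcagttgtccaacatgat
Tgfbr2 (A_55_P2107288): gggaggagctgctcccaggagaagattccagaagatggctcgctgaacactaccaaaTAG
Skil (A_52_P597461): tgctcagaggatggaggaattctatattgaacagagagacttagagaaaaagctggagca
In the mm9 build named by the array annotation, the Tgfb1 probe lies on the plus strand at chr7:26489877-26489936, the Tgfbr2 probe on the minus strand at chr9:115999496-115999555 and the Skil probe on the plus strand at chr3:31016390-31016449. The Tgfb1 probe is the gene's single probe, while Tgfbr2 and Skil each have a brighter second probe, which was used as the lead probe. Levels of different probes are not compared, since each probe binds with its own strength.

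A test over all 12 group means (limma F test, p under 0.001 and adjusted p under 0.005) called 5 of the 16 member probes, against 17.3% of all 22264 probes tested. These were the probes of Tgfb1, Tgfb3, Tgfbr3 and Smad7 and the lead probe of Tgfbr2. Tgfb3 and Smad7 separated TFH cells from the rest, Tgfbr3 and Tgfbr2 were lowest in TFR cells on every slide, and Tgfb1 separated the tissues. Smad2, Smad3, Smad4, Tgfbr1 and Skil were not called by the F test. For the alternative settings that follow, the share of all probes called is not given. The count was 1 without slide 4 (Tgfbr3, adjusted p = 0.00398), 3 without the filter on dim probes (Tgfb1, Tgfb3 and Tgfbr2), 3 to 5 when 1 array was left out and 10 with slide as a random block.

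**Figure D1:**
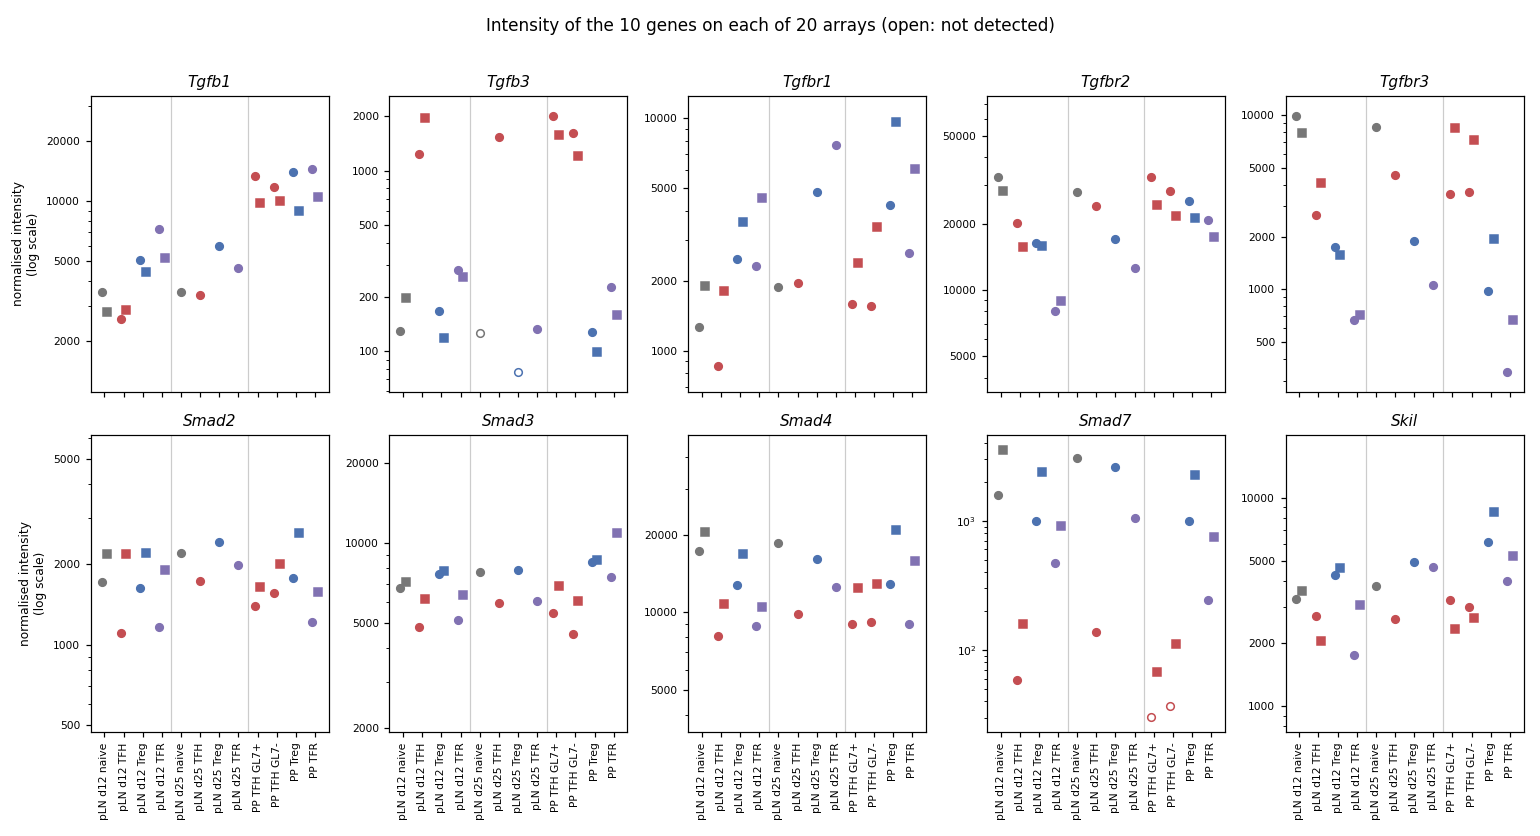
Normalised intensity (log scale) of the lead probe of each of the 10 genes on the 20 arrays, by group, in naive (grey), TFH (red), Treg (blue) and TFR cells (purple). Circles are the first and squares the second array of a group, open symbols were not detected, and vertical lines part pLN d12, pLN d25 and PP. Tgfb3 lies between 1200 and 1994 on the 7 TFH arrays and at most at 282.2 on the other 13, and Smad7 shows the opposite order.

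Tgfb3, the ligand gene whose product is linked to tissue repair and to helper T-cell differentiation, was a transcript of TFH cells in both tissues. In pLN on d12 it read 1228 and 1960 in TFH cells, 128.9 and 197.1 in naive cells, 167.1 and 119.2 in Treg cells and 282.2 and 257.1 in TFR cells. On d25 the single arrays gave 1542 in TFH cells and 133.1 in TFR cells, and the probe was not detected in naive cells (126) or Treg cells (77.3). In PP it read 1994 and 1565 in TFH GL7+ cells, 1619 and 1200 in TFH GL7- cells, 128.7 and 98.8 in Treg cells and 225.8 and 158.6 in TFR cells. No array of TFH cells overlapped with any array of another cell type. The summed myeloid markers also ran higher in TFH than in naive and Treg cells of pLN. In PP they summed to 10500 in TFR and 7237 in TFH GL7+ cells on slide 4, and to 3096 and 3607 on slide 5. The part of myeloid cells in the Tgfb3 values was not tested.

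Tgfb3 rose by 3.28 ± 0.32 (log2, SE) from naive to TFH cells of pLN on d12 (n = 2 per group, 95% interval 2.57 to 4, adjusted p = 6.46e-05, limma). It was lower in TFR than in TFH cells by a log2 difference of -2.53 ± 0.32 in pLN (adjusted p = 0.00118) and of -3.22 ± 0.32 in PP (adjusted p = 0.000336). The 2 calls against TFR cells were lost when the compared groups were fitted alone (adjusted p = 0.0991 and 0.114) and kept when any 1 of the 4 arrays was left out. Between TFR and Treg cells Tgfb3 did not pass the test, with a log2 difference of 0.93 ± 0.32 in pLN (adjusted p = 0.0989) and 0.75 ± 0.32 in PP (adjusted p = 0.195), although the TFR array was higher on each of the 5 slides, d25 included. Between GL7+ and GL7- TFH cells of PP no difference in Tgfb3 was detectable (log2 difference 0.34, 95% interval -0.38 to 1.06).

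Tgfb1, the ligand gene expressed most widely by T cells, separated PP from pLN. In pLN on d12 it read 3526 and 2774 in naive cells, 2587 and 2855 in TFH cells, 5057 and 4410 in Treg cells and 7283 and 5195 in TFR cells. On d25 it read 3499 in naive, 3401 in TFH, 5958 in Treg and 4618 in TFR cells. The PP arrays gave 13491 and 9817 in TFH GL7+ cells, 11762 and 10041 in TFH GL7- cells, 13983 and 8951 in Treg cells and 14466 and 10467 in TFR cells. The lowest of the 8 PP arrays, at 8951, lay above the highest of the 12 pLN arrays, at 7283.

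Averaged over Treg, GL7+ TFH and TFR cells, Tgfb1 was higher in PP than in pLN on d12 by 1.44 ± 0.16 (log2, SE, 95% interval 1.08 to 1.81, adjusted p = 0.000246). It was the single member probe of 16 called in this comparison, against 9.34% of all probes. The rise was 2.08 ± 0.28 in TFH cells (adjusted p = 0.00339), where 1 of 16 member probes was called against 4.54% of all probes. It was 1 ± 0.28 in TFR cells (adjusted p = 0.0375), where Tgfb1 and Tgfbr2 were the 2 of 16 member probes called, against 11.1% of all probes. In Treg cells the difference was 1.24 ± 0.28 with an adjusted p of 0.0503, so limma called 0 of the 16 member probes, against 2.24% of all probes. An unadjusted p under 0.05 was reached by 4 member probes, and the share of all probes under it is not given.

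Slide 4, which had the highest summed B-cell and epithelial markers, also had the higher Tgfb1 values, by 0.23 to 0.64 (log2) over slide 5 in the 4 groups. Without slide 4 the average tissue difference was 1.18 (adjusted p = 0.00761), and the differences in TFH and TFR cells were 1.85 (adjusted p = 0.0549) and 0.77 (adjusted p = 0.143), which ended both calls. The TFR call also depended on each single array, with adjusted p between 0.0532 and 0.223 when 1 of the 4 was left out. It was lost with slide as a random block (adjusted p = 0.057). Tissue and slide are nested, since each slide holds samples of a single tissue. Whether the tissues also differ in immunisation is not settled by the labels, and any such difference cannot be told apart from tissue.

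Within pLN, Tgfb1 was higher in TFR than in TFH cells on d12 by 1.18 ± 0.28 (adjusted p = 0.0364), and the d25 arrays differed by 0.44. The d12 call was lost when any 1 of the 4 arrays was left out (adjusted p = 0.065 to 0.277). The adjusted p was 0.0504 without slide 4, which enters through the shared spread. In PP the same difference was 0.1 ± 0.28 (adjusted p = 1). The difference between the tissues was -1.08 ± 0.4, which did not pass the test (adjusted p = 0.534) but did with slide as a fixed block (-1.08 ± 0.22, adjusted p = 0.0346). In that comparison of TFR with TFH cells between tissues, 0 of 16 member probes were called by limma against 0.611% of all probes. There 1 had an unadjusted p under 0.05, and 3 were called with slide as a fixed block. The share of all probes is not given for either of these counts.

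**Figure D2:**
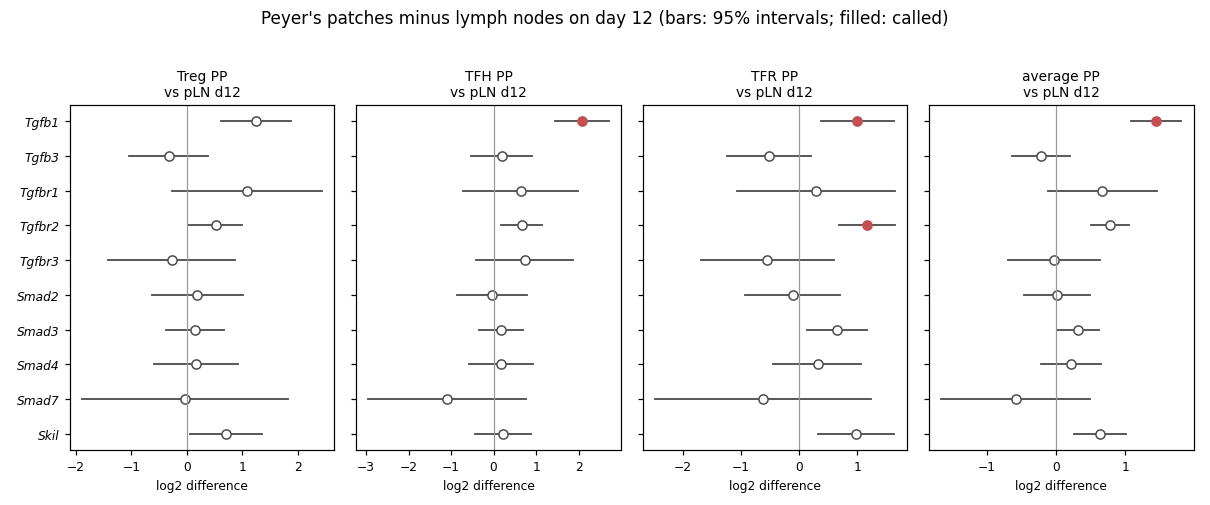
Log2 difference of PP minus pLN on d12 for the lead probe of each gene, in Treg, TFH (GL7+ in both tissues) and TFR cells and as their average, with 95% intervals from limma. Filled red points were called. Panels have their own horizontal scales. Tgfb1 lies to the right of 0 in all 4 panels, with an average of 1.44.

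Among the receptors, Tgfbr3 showed the widest range. Betaglycan, its product, lacks kinase activity and acts as a coreceptor. In pLN on d12 it read 9953 and 7957 in naive cells, 2662 and 4091 in TFH cells, 1759 and 1573 in Treg cells and 665.2 and 714.2 in TFR cells. On d25 it read 8597, 4531, 1901 and 1068 in the same order. The PP values were 3535 and 8427 in TFH GL7+ cells, 3624 and 7216 in TFH GL7- cells, 978.7 and 1939 in Treg cells and 334.6 and 664.3 in TFR cells. On every slide the TFR array was the lowest of the 4, and on each of the 3 pLN slides the naive array was the highest.

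Tgfbr3 fell by 2.42 ± 0.51 (log2, SE) from naive to Treg cells of pLN on d12 (adjusted p = 0.0249). It was the single call among 16 member probes in that comparison, against 3.76% of all probes. It was lower in TFR than in TFH cells by -2.26 ± 0.51 in pLN (adjusted p = 0.0282) and by -3.53 ± 0.51 in PP (adjusted p = 0.00324). Both pLN calls were lost when any 1 of the 4 compared arrays was left out (adjusted p = 0.0878 to 0.178 and 0.0832 to 0.163) and without the filter on dim probes (adjusted p = 0.0787 and 0.0761). The PP call was lost with the compared groups fitted alone (adjusted p = 0.21). The slide 5 arrays by themselves differed by -3.67, with an adjusted p of 0.0136 that takes its spread from other groups.

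From Treg to TFR cells Tgfbr3 differed by -1.27 ± 0.51 in pLN (adjusted p = 0.163) and -1.55 ± 0.51 in PP (adjusted p = 0.0862), and neither passed. With slide as a fixed block both did, at adjusted p = 0.00175 and 0.000627. In these comparisons of TFR with Treg cells, limma called 0 of 16 member probes in pLN, against 8.35% of all probes. In PP it called 0 of 16, against 9.25%. An unadjusted p under 0.05 was reached by 6 and 3 member probes, and the share of all probes under it is not given. Without slide 4, Tgfbr3 was called in pLN (-1.27, adjusted p = 0.0329). With slide as a fixed block 2 member probes were called in each tissue, those of Tgfbr3 and Smad7. The share of all probes called is not given for that setting. The values of PP slide 4 were lower than those of slide 5 by 0.99 to 1.25 (log2) in the 4 groups.

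Tgfbr2, the ligand-binding receptor kinase, was brightest in naive cells and dimmest in TFR cells of pLN. Its lead probe (A_51_P450573) read 32517 and 28245 in naive cells, 20248 and 15664 in TFH cells, 16403 and 15851 in Treg cells and 8061 and 8967 in TFR cells of pLN on d12. On d25 it read 27787 in naive, 23988 in TFH, 17038 in Treg and 12611 in TFR cells. PP cells gave 32486 and 24323 in TFH GL7+ cells, 28054 and 21800 in TFH GL7- cells, 25323 and 21186 in Treg cells and 20862 and 17443 in TFR cells. The coding probe shown above was dimmer, between 248.8 and 1292, and had the TFR array as the lowest on each slide too.

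Tgfbr2 was lower in TFR than in TFH cells of pLN by -1.07 ± 0.22 (log2, SE, adjusted p = 0.0158), and the coding probe gave -0.97 ± 0.41 (adjusted p = 0.273). Leaving out TFH replicate 1, TFR replicate 1 or TFR replicate 2 ended the lead probe's call (adjusted p = 0.148, 0.126 and 0.0695). It also ended with 75th percentile scaling alone (log2 difference -0.96). From naive to TFH cells, from naive to Treg cells and from Treg to TFR cells the lead probe differed by -0.77, -0.91 and -0.92, with adjusted p of 0.0306, 0.0443 and 0.0208, and was not called because each difference was under 1. TFR cells of PP lay above those of pLN by 1.17 ± 0.22 (adjusted p = 0.00595), and by 1.04 without slide 4 (adjusted p = 0.0422). That call was lost without pLN d12 TFR replicate 1 (adjusted p = 0.0508) and with 75th percentile scaling alone (log2 difference 0.86).

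Tgfbr1, the receptor kinase that phosphorylates SMAD2 and SMAD3, was not called in any of the 14 comparisons. Its lead probe (A_55_P2137206) read 1271 and 1894 in naive, 863.6 and 1809 in TFH, 2492 and 3592 in Treg and 2326 and 4560 in TFR cells of pLN on d12, and 1874, 1955, 4799 and 7659 on d25. In PP it read 1583 and 2392 in TFH GL7+, 1558 and 3396 in TFH GL7-, 4227 and 9607 in Treg and 2623 and 6047 in TFR cells. On each slide the Treg and TFR arrays lay above the naive and TFH arrays. The difference between TFR and TFH cells was 1.38 ± 0.61 in pLN (adjusted p = 0.302) and 1.03 ± 0.61 in PP (adjusted p = 0.696). With slide as a fixed block these became 1.38 ± 0.18 (adjusted p = 0.00144) and 1.03 ± 0.18 (adjusted p = 0.00795). Of the 3 other Tgfbr1 probes, A_55_P1960906 sat at the floor of 20 on all arrays and was not tested, and the other 2 never rose above 178.3.

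Smad7, the inhibitory SMAD that brings ubiquitin ligases to the receptors, had the largest fall from naive to TFH cells among the member probes. In pLN on d12 it read 1581 and 3520 in naive cells, 58.4 and 159.4 in TFH cells, 990.7 and 2379 in Treg cells and 470.8 and 905.8 in TFR cells. On d25 it read 3065 in naive, 138.7 in TFH, 2608 in Treg and 1041 in TFR cells. In PP it read 67.2 in TFH GL7+ and 111.9 in TFH GL7- cells on slide 5 and was not detected in either on slide 4 (30.4 and 37.1), against 990.7 and 2273 in Treg cells and 243.7 and 740.9 in TFR cells. The naive and TFH arrays of pLN that differed in Smad7 also differed in the summed myeloid markers, which were the higher in TFH cells. The highest of the 7 TFH arrays, at 159.4, lay below the lowest of the other 13, at 243.7.

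Smad7 fell by 4.61 ± 0.84 (log2, SE) from naive to TFH cells of pLN on d12 (95% interval -6.47 to -2.75, adjusted p = 0.00293). The within-slide differences were -4.76 and -4.46 on d12 and -4.47 on d25. The call was kept when any 1 of the 4 arrays was left out and lost with the compared groups fitted alone (adjusted p = 0.0591). In this comparison 3 of 16 member probes were called, 1 higher (Tgfb3) and 2 lower (Smad7 and a Smad4 probe), against 14.7% of all probes. A fixed block for slide gave 5 calls, with Tgfbr3 and the other Smad4 probe added, and the share of all probes called is not given there. TFR cells lay above TFH cells by 2.76 ± 0.84 in pLN (adjusted p = 0.0968) and by 3.23 ± 0.84 in PP (adjusted p = 0.0693), and neither passed.

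Slides differed in their Smad7 level as a whole, with slide 4 lower than slide 5 by 1.15 to 1.6 (log2) in all 4 groups. With slide as a fixed block the SE was 0.16 instead of 0.84, and TFR cells were above TFH cells in pLN (2.76, adjusted p = 2.43e-05) and in PP (3.23, adjusted p = 2.02e-05) and below Treg cells in pLN (-1.23, adjusted p = 0.000686) and in PP (-1.82, adjusted p = 9.11e-05). The PP difference from TFH cells includes the slide 4 TFH GL7+ array, on which Smad7 was not detected, so that its size is uncertain, and slide 5, where both were detected, gave 3.46. In every tissue and on each day the order of Smad7 was Treg, TFR and TFH from high to low, on all 5 slides. Between PP and pLN it differed by -0.58 on average (95% interval -1.66 to 0.49, adjusted p = 0.416).

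**Figure D3:**
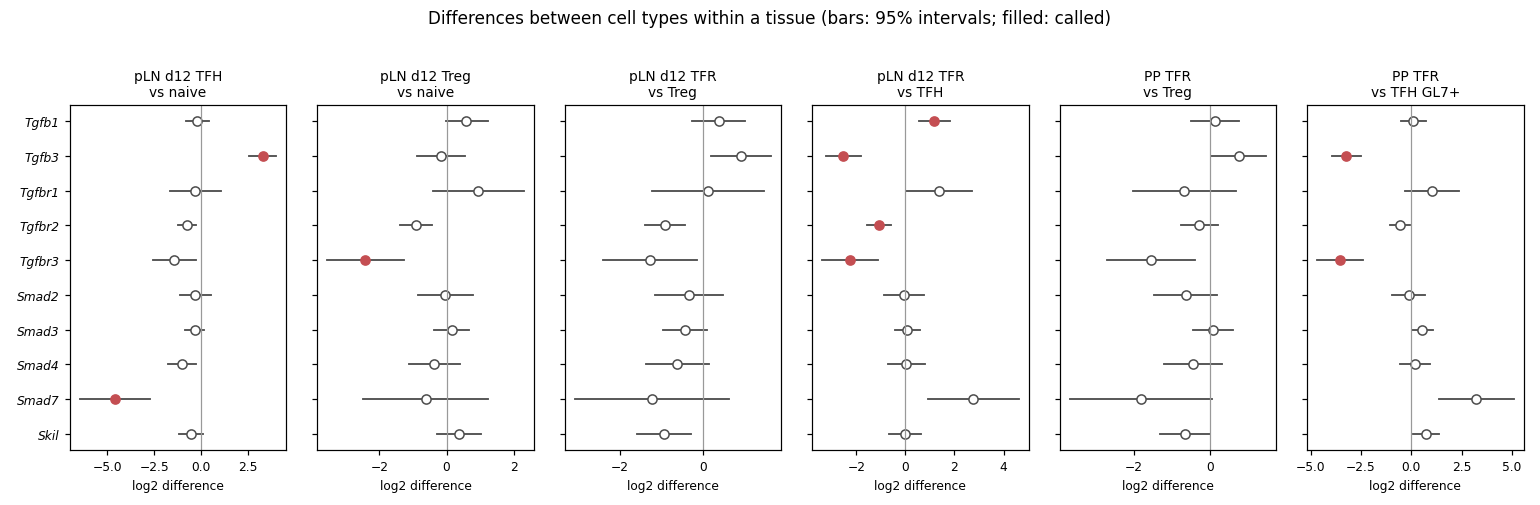
Log2 difference between cell types within a tissue for the lead probe of each gene, with 95% intervals from limma over all 20 arrays. Filled red points were called (adjusted p under 0.05 and a difference of at least 1 in size), and panels have their own horizontal scales. Tgfb3 and Smad7 lie on opposite sides of 0 between TFH and naive cells, at 3.28 and -4.61.

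The transducers moved less. Smad4, the common partner of the receptor-activated SMADs, had 2 probes. The probe A_55_P2112617 read 17443 and 12101 in naive, 7935 and 5644 in TFH, 13896 and 10615 in Treg and 9082 and 6454 in TFR cells of pLN on d12. It fell by 1.12 ± 0.28 (log2, SE) from naive to TFH cells (adjusted p = 0.0171), and the call was lost without naive replicate 1 (adjusted p = 0.148), TFH replicate 2 (adjusted p = 0.12) or slide 4 (adjusted p = 0.0584). The lead probe, A_55_P2112622, gave -1.01 ± 0.34 (adjusted p = 0.064), and -1.01 ± 0.11 with slide as a fixed block (adjusted p = 0.000129). On each of the 3 pLN slides the naive array was the brightest for both probes.

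Smad3, a receptor-activated transducer, stayed between 4551 and 10857 on all 20 arrays with its lead probe (A_55_P2101001). Its largest difference in the 14 comparisons was 0.65 ± 0.23 (log2, SE), between TFR cells of PP and pLN (adjusted p = 0.0897). Smad2, its close relative, stayed between 1102 and 2617, with differences of -0.64 to 0.28 and no adjusted p under 0.363 in the 14 comparisons. The intervals of TFH against naive cells were -0.87 to 0.17 for Smad3 and -1.14 to 0.5 for Smad2. Both lie above the estimate of -4.61 for Smad7, whose own interval is given above. The genes were not tested against each other.

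Skil, whose product SnoN binds SMADs and recruits corepressors, was highest in Treg cells. Its lead probe (A_51_P118132) read 3283 and 3557 in naive, 2708 and 2064 in TFH, 4257 and 4609 in Treg and 1767 and 3052 in TFR cells of pLN on d12, and 3785, 2620, 4899 and 4662 on d25. In PP it read 3226 and 2350 in TFH GL7+, 2988 and 2639 in TFH GL7-, 6144 and 8544 in Treg and 4011 and 5252 in TFR cells. Averaged over the 3 cell types it was 0.64 ± 0.17 (log2, SE) higher in PP than in pLN (adjusted p = 0.0181), under the fold required for a call. In TFR cells the difference was 0.98 ± 0.29 (adjusted p = 0.0456), likewise just under it. The coding probe of Skil shown above was dim, between 49 and 206.3.

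In the comparison of TFR with TFH cells, 4 of 16 member probes were called in pLN (Tgfb1 higher, and Tgfb3, Tgfbr2 and Tgfbr3 lower), against 5.01% of all probes, and 2 of 16 in PP (Tgfb3 and Tgfbr3, both lower), against 3.44%. The counts were 7 and 4 with slide as a fixed block. The share of all probes called is not given there, so the rise is no result about these genes in particular. In 3 further comparisons limma called 0 of the 16. These were GL7+ against GL7- TFH cells of PP (0.00898% of all probes called), d25 against d12 in pLN (0.0404%), and the tissue difference of the Treg to TFR step (0.548%). Between GL7+ and GL7- TFH cells the lead probes of the members differed by -0.51 to 0.34. In the order of the 3 comparisons, 0, 2 and 0 member probes had an unadjusted p under 0.05. The share of all probes under it is not given. The median log2 difference over the 16 member probes was -0.442 between TFH and naive cells, where it was -0.091 over all probes tested, and 0.384 between PP and pLN on average, where it was -0.004.

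The groups were also put in order by mean log2 level, with the range of their arrays. Each range comes from at most 2 arrays, so a gap between ranges is a description and not a test. For Tgfb3 the 4 TFH groups came first, with ranges that overlapped each other, and a gap down to pLN d12 TFR cells, whose lower array was 257.1. For Tgfb1 the 4 PP groups came first and overlapped each other, followed by pLN d12 TFR cells. For Smad7 the last 4 places were the TFH groups, below PP TFR cells. Without a block for slide, the Smad7 difference between TFR and TFH cells nonetheless did not pass limma in either tissue. For Tgfbr3 the first 2 places were the naive groups. The d12 naive range of 7957 to 9953 overlapped that of PP TFH GL7+ cells, at 3535 to 8427. The last 2 places were TFR cells of pLN on d12 and of PP. Their ranges of 665.2 to 714.2 and 334.6 to 664.3 met almost edge to edge.

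Over the 12 group means, the genes whose pattern was most like that of a called member were found by Pearson's r on the log2 scale, as a description. They were Fmnl1 (r = 0.97) and Pygb (r = 0.96) for Tgfb1, Akap12 (r = 0.983) and Adamts3 (r = 0.982) for Tgfb3, and Smcr8 (r = 0.956) and Zfp710 (r = 0.955) for Tgfbr2. Nlk (r = 0.963) was nearest to Tgfbr3, and Sesn1 (r = 0.984) and Ppp3ca (r = 0.983) were nearest to Smad7. Among the members themselves, Tgfb3 and Smad7 ran opposite to each other (r = -0.95). The points share their slides and array normalisation.

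A wider list of 81 further genes of the pathway and its targets was described in the same fits, of which 63 genes were tested by 88 probes. Among these 88 probes, 23 were called between TFH and naive cells of pLN (14 higher and 9 lower, 14.7% of all probes called), 13 between Treg and naive cells (12 higher and 1 lower, 3.76%) and 15 in pLN TFR against Treg cells (8 higher and 7 lower, 8.35%). Between PP and pLN, 21 were called in TFR cells (14 higher and 7 lower, 11.1%), 13 in TFH cells (8 higher and 5 lower, 4.54%) and 6 in Treg cells (4 higher and 2 lower, 2.24%). Of the ligand and activation probes, 2 were called higher and 1 lower in TFH cells of PP than of pLN. The lower was Nrp1 (-5.2 ± 0.91, log2, SE, adjusted p = 0.0115), detected on 1 of the 2 PP arrays. Its average tissue difference was -2.44 ± 0.52 (adjusted p = 0.00666). Of the modulator probes, 6 were called higher and 1 lower in the same TFH comparison, the lower being Cd109 (-1.91 ± 0.19, adjusted p = 0.00106). The targets on this list are targets in T cells in general, such as Ifng, Gzmb and Foxp3, and answer to many other signals.

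The 11 genes described next have 40 calls of their probes in comparisons with PP cells, of which 19 were kept and 21 lost without slide 4, an alternative that was chosen for them after seeing the data.

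Among the carriers and activators of the ligand, Lrrc32, whose product GARP anchors latent TGF-beta on Treg cells, was bright on every array of Treg and TFR cells. It read 25210 and 24580 in Treg cells and 15150 and 18650 in TFR cells of pLN on d12, 21590 and 20140 in Treg cells and 8579 and 14400 in TFR cells of PP, and at most 155.5 on the 10 arrays of naive and TFH cells. The gap between TFR and TFH cells was 7.25 ± 0.38 (log2, SE) in pLN (adjusted p = 5.23e-06) and 6.22 ± 0.38 in PP (adjusted p = 2.18e-05). Between TFR and Treg cells it was -0.57 in pLN (adjusted p = 0.458) and -0.91 in PP (adjusted p = 0.184).

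Itgb8, the integrin chain that pairs with the alpha-v chain to free active TGF-beta, was detected on PP arrays of follicular cells and on no pLN array. It read 119.2 and 161.1 in TFR cells, 48.28 and 33.9 in TFH GL7+ cells and 49.5 and 45.17 in TFH GL7- cells of PP. It sat at the floor of 20 on both Treg arrays of PP and was between 20 and 76.72 on the 12 pLN arrays. The lowest intensity of a detected probe was 67.63 to 144 on slides 2 and 3 and 20 to 41.06 on slides 4 and 5. Detection thus reached lower levels in PP than on those 2 pLN slides, and an undetected pLN array read above the TFH arrays of PP. In TFR cells of PP it was at least 4.09-fold higher than in Treg cells of PP (adjusted p = 5.01e-05) and at least 2.53-fold higher than in TFR cells of pLN (adjusted p = 0.000192). For TFH GL7+ cells of PP over TFH cells of pLN on d12 the bound was 1.1-fold. Each bound sets the mean of the bright group against the lowest level at which a probe was detected on the other arrays, or the dim probe's own value where that was higher. The Treg to TFR step of Itgb8 differed between the tissues by 2.38 ± 0.31 (adjusted p = 0.00953), measured from values that were mostly at the floor, and was not called without slide 4 (2.6, adjusted p = 0.0801). Without slide 4 the TFR calls of Itgb8 against PP Treg cells and pLN TFR cells were kept (adjusted p = 0.00722 and 0.00611).

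Ltbp4, which codes for a latent TGF-beta binding protein of the matrix, was higher in PP than in pLN in TFR cells, while its probes differed in TFH cells. Its brightest probe, A_51_P403536, read 4549 and 3256 in TFR cells of PP, 1873 and 1134 in TFH GL7+ cells of PP, 546.1 and 271 in Treg cells of PP and 585.9 and 440.1 in TFR cells of pLN on d12. The difference was 3.32 ± 0.51 (log2, SE) between TFR and Treg cells of PP (adjusted p = 0.00203) and 2.92 ± 0.51 between TFR cells of PP and pLN (adjusted p = 0.00458), and without slide 4 these were 3.59 and 2.68 (adjusted p = 0.0544 and 0.0509). Between TFH cells of PP and pLN the brightest probe was not called, nor was A_55_P2033507 (adjusted p = 0.0806). The probe A_55_P2033500 was called there (3.54 ± 0.68, adjusted p = 0.0164, detected on 1 of the 2 pLN arrays), a call that was lost without slide 4. Between TFR and TFH GL7+ cells of PP no Ltbp4 probe was called, with 1.4 ± 0.51 for the brightest (adjusted p = 0.248). Ltbp3, a relative, was detected by its probe A_51_P233101 on both TFR arrays of PP, at 271.1 and 227, and was at least 3.81-fold higher there than in TFR cells of pLN (adjusted p = 0.00929), a call that was lost without slide 4 (adjusted p = 0.111). The second Ltbp3 probe, A_55_P2091284, read 980 and 602.9 against 865.7 and 398.8 in the same groups and was not called.

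**Figure D4:**
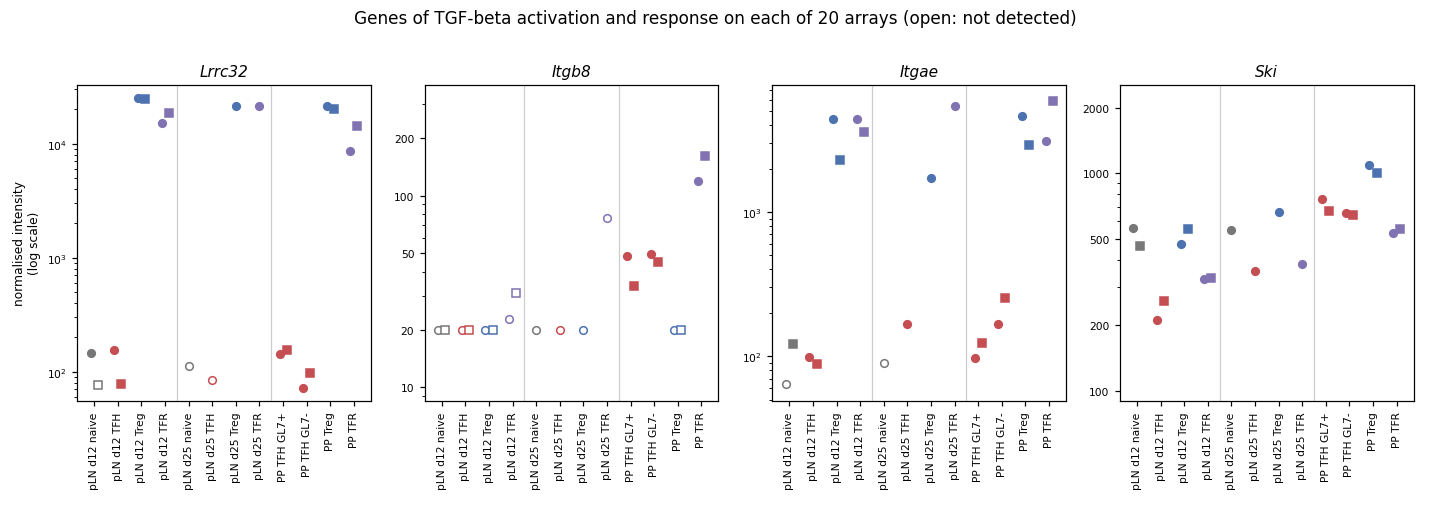
Normalised intensity (log scale) of Lrrc32, Itgb8, Itgae and Ski on the 20 arrays, by group, with naive (grey), TFH (red), Treg (blue) and TFR cells (purple). Circles are the first and squares the second array of a group, and open symbols were not detected. Itgb8 is detected on PP arrays of TFH and TFR cells alone, with the highest values, 119.2 and 161.1, in TFR cells.

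Itgae, a gene that TGF-beta is known to induce in T cells and that codes for the CD103 chain, was a transcript of Foxp3+ cells in both tissues. It read 4444 and 2278 in Treg cells and 4444 and 3610 in TFR cells of pLN on d12 and 4660 and 2911 in Treg cells and 3107 and 5848 in TFR cells of PP. It was at most 255.4 on the 10 arrays of naive and TFH cells. TFR cells exceeded TFH cells by 5.43 ± 0.44 (log2, SE) in pLN (adjusted p = 9.18e-05) and by 5.28 ± 0.44 in PP (adjusted p = 0.000121). PP and pLN differed by 0.18 ± 0.26 on average (adjusted p = 0.659).

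Among the modulators, Ski, the corepressor related to SnoN, was higher in PP than in pLN. It read 763.7 and 670.9 in TFH GL7+ cells and 1089 and 1002 in Treg cells of PP, against 210.8 and 257.6 in TFH cells and 473.2 and 554.9 in Treg cells of pLN on d12. The average tissue difference was 1.12 ± 0.1 (log2, SE, adjusted p = 5.92e-05), with 1.62 ± 0.17 in TFH cells (adjusted p = 0.0011) and 1.03 ± 0.17 in Treg cells (adjusted p = 0.0105). In TFR cells it was 0.72 ± 0.17 (adjusted p = 0.0166), under the fold required for a call. Without slide 4 the average was 1.08 (adjusted p = 0.0054), and the TFH and Treg calls were lost (1.53 and 0.97, adjusted p = 0.0524 and 0.111). In pLN Ski fell by 1.13 ± 0.17 from naive to TFH cells (adjusted p = 0.000847). Smurf2, a ubiquitin ligase that acts with SMAD7, was also higher in PP, by 1.22 ± 0.14 on average with its brightest probe, A_52_P472660 (adjusted p = 0.000231), and by 1.05 ± 0.17 with A_55_P2124619 (adjusted p = 0.00133, and 0.98 without slide 4, under the fold required), while its other probe, A_55_P1976057, was not called. Nedd4l, another ligase of that kind, fell with Smad7 from naive to TFH cells of pLN, from 789 and 1321 to 65.42 and 192.6 (log2 difference -3.18 ± 0.55, adjusted p = 0.00218).

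Among the other receptors of the superfamily, Acvrl1, the type I receptor ALK1, read 4899 and 5799 in naive cells, 1508 and 1818 in Treg cells, 204.2 and 317.6 in TFH cells and 307.1 and 332 in TFR cells of pLN on d12. It fell by 4.39 ± 0.29 (log2, SE) from naive to TFH cells (adjusted p = 6.92e-06) and by 2.37 ± 0.29 from Treg to TFR cells (adjusted p = 0.00082). Acvr1, the type I receptor ALK2, moved the other way with its probe A_55_P2159710, from 73.28 and 135.5 in naive cells to 494 and 583.5 in TFH cells and 1168 and 1386 in TFR cells. It rose by 2.43 ± 0.26 from naive to TFH cells (adjusted p = 0.000101) and by 2.34 ± 0.26 from Treg to TFR cells (adjusted p = 0.000496). A second probe, A_55_P2102693, gave 0.7 ± 0.36 (adjusted p = 0.229) from naive to TFH cells, with 1 of the 2 naive arrays detected, and 1.46 ± 0.36 (adjusted p = 0.0257) from Treg to TFR cells. In PP the first probe, A_55_P2159710, read 296.5 and 337.7 in TFR cells, and its average tissue difference was -1.99 ± 0.15 (adjusted p = 3.45e-05). Acvr1c, the type I receptor ALK7, was detected on Treg arrays alone, at 160.8 and 133.5 in pLN on d12, 158.7 on d25 and 73.87 and 180.8 in PP, and sat at the floor on the other 15 arrays.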

How the data were processed

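The 20 deposited scanner files hold background-subtracted intensity per feature from Agilent Feature Extraction 10.7.3.1, per the submitters' processing notes. The series matrix of the authors holds linear intensity, averaged over features, quantile normalised, scaled and floored by the authors, and was an alternative. From the scanner files, the geometric mean of up to 4 copies was taken for each of 39429 probes, then quantile normalisation, a 75th percentile set to 1500, a floor of 20 and the log2 scale were applied. It differed from the series matrix by a median of 0.0347 to 0.0362 per array.

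Tests used limma 3.58.1 in R 4.3.3 on log2 values of 22264 probes, with 1 mean for each of 12 groups over 20 arrays and 8 residual degrees of freedom. A call needed a Benjamini-Hochberg adjusted p under 0.05 over all tested probes and an absolute log2 difference of at least 1. The labels give no replicate numbers. Arrays of a slide deviated together (r = 0.52 to 0.72 in pLN d12 and 0.66 to 0.87 in PP), so slide was tried as a block. On simulated data for TFH against naive cells, with 200 of 22264 probes changed, 6.5% of log2 changes of 1 and 63.5% of log2 changes of 2 were recovered. The simulated noise was independent between arrays, and fewer probes were changed than the 14.7% called in the data. These rates therefore do not give the sensitivity of the real tests. The number of arrays limits the precision. All members were named, with the brightest probe of each as lead. Of the other pathway genes, Lrrc32, Itgb8, Itgae and Ski were named whatever their values. The others described are a selection from the genes called. Called changes larger than some of theirs, among them changes of Cdkn1a, Id1, Ifng and Gzmb, are not described. Members and lists were chosen with earlier results of these data known.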

Additional observations from a re-analysis of the deposited data

How the results depend on the processing

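Counts are of the 16 member probes called, for comparisons that moved by over 1.5 times. The share of all probes called is not given for these settings. With slide as a fixed block they were 5 for TFH against naive cells, 2 for pLN TFR against Treg, 7 for pLN TFR against TFH, 2 for PP TFR against Treg, 4 for PP TFR against TFH GL7+ and 3 for the tissue difference of TFR against TFH. RNA input as a covariate gave 5, 2, 7, 2 and 4 for the first 5 of these. Slide as a random block gave 5, 2, 7, 2, 4 and 2 for all 6, 10 for the F test and 1 for TFR cells of PP against pLN. Without slide 4 the counts were 1 for the F test, 1 for pLN TFR against Treg, and 0 in TFH and 1 in TFR cells between tissues. No filter on dim probes gave 3 for the F test, 0 for Treg against naive, 2 for pLN TFR against TFH and 1 for TFR cells between tissues. With the compared groups alone, there was 1 for TFH against naive cells and 0 for Treg against naive, pLN TFR against TFH, PP TFR against TFH GL7+, and TFH and TFR cells between tissues. With no minimum fold change there were 2 for Treg against naive, 1 for pLN TFR against Treg and 4 for the tissue average. Scaling to the 75th percentile alone gave 0 for TFR cells between tissues, and normexp background correction gave 1 for Treg cells between tissues. Leaving out 1 array gave 3 to 5 for the F test, 2 to 3 for TFH against naive, 0 to 1 for Treg against naive, 0 to 1 for pLN TFR against Treg, 1 to 2 for pLN TFR against TFH, and, between tissues, 0 to 1 in Treg and 0 to 2 in TFR cells. Of 3554 values of single probes under the alternatives, 3450 kept their direction and side of the threshold, 46 lost and 58 gained a call, and 0 reversed a called direction. Except where a setting's own construction gives it (fewer arrays or more probes tested), the cause of a change was not tested. Signal near background limits Smad7 in TFH cells, Itgb8, and the dim probes of Tgfbr1, Smad3 and Skil.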
